A study of Homo sapiens with 6 samples.

Results

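Nuclear receptors are transcription factors that are switched by small lipid-soluble ligands or by their own rapid synthesis. Described here are 10 of them, chosen by name with earlier results of these data known: the orphan receptors *NR4A1*, *NR4A2* and *NR4A3*, the fatty acid receptor *PPARG*, the shared dimer partner *RXRA*, the retinoic acid receptor *RARA*, the vitamin D receptor *VDR*, the glucocorticoid receptor *NR3C1*, and the retinoid-related orphan receptors *RORA* and *RORB*. All 10 were found by symbol among the 30017 genes of the counts table. *NR4A3* and *PPARG* had too few counts to pass the filter on low counts, so that 8 were among the 14758 genes tested.

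RNA-seq covered a single cell line, BLaER1-CTCF-mAID, which derives from human B cell leukemia. Its chromatin protein CTCF carries a degron, a tag that leads to degradation of the protein when auxin is added. Like the parental line, these cells convert into induced macrophages (iMacs) when the transcription factor C/EBPα is activated with estradiol in medium with IL-3 and CSF-1. The 3 conditions were undifferentiated B cells (0 h), cells 96 h after induction without auxin (96 h control) and cells 96 h after induction to which auxin had been added at the start (96 h CTCF-depleted), each in 2 biological replicates. All conditions carried the same tagged *CTCF* and the same C/EBPα transgene, and the line is 1 subclone. A library of cells treated with auxin but lacking the degron was not analysed here, so that effects of auxin and of CTCF loss cannot be told apart. By the study's methods, the auxin cultures received fresh medium with factors and auxin partway through the 96 h. Whether the control cultures did is not stated, and an effect of fresh medium was not tested.

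The libraries held between 9273470 and 12718780 counts. Replicates differed by more than counting noise, with a chi-square per degree of freedom of 1.59 to 2.36, and were used as separate samples. The 11 B cell markers examined were all lower and the 11 macrophage markers all higher in 96 h control than in 0 h cells. The summed level of the macrophage markers was 39.5 to 41.6 CPM (counts scaled to a common library size) at 0 h, 8252 to 8672 CPM in control libraries and 7200 to 7448 CPM with CTCF depletion. The B cell sum was 3901 to 3953, 408 to 413 and 358 to 374 CPM. *LYZ* and *S100A9* made up most of the macrophage sum. Their means were 4527 and 3140 CPM in control and 4158 and 2255 CPM with CTCF depletion. The 11 macrophage markers had a median log2 fold change of 0.15 in CTCF-depleted against control cells. Of them *ITGAM* was called higher (128 to 285 CPM) and *MRC1* lower (35.1 to 14.0 CPM), by the thresholds given below. Over all tested genes 5.41% were higher and 7.03% lower. *CTCF* transcripts were at 222, 177 and 190 CPM at 0 h, in control and in CTCF-depleted cells. A degron removes protein and not transcript, so this level does not check the labels. Of 7 T and NK cell markers only *NKG7* was abundant enough to be tested. It was 12.9-fold higher in control than at 0 h (edgeR adjusted p = 9.69e-30), and the sum of the 7 went from 2.68 to 2.93 CPM at 0 h to 34.7 to 35.1 CPM in control libraries and 27.7 to 29.8 CPM with CTCF depletion. Of 6 erythroid markers 5 had no count in any library. The sum of 5 granulocyte precursor markers went from 0.722 to 1.35 CPM at 0 h to 52.9 to 58.2 CPM in control libraries and 43.8 to 47.4 CPM with CTCF depletion. Their median log2 fold change upon CTCF depletion was 0.15. Only *MPO* of the 5 was called, as lower, and with DESeq2 it was not (adjusted p = 0.168).

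As background, these receptors share a DNA-binding domain and work in different pairings. *RXRA* pairs with *RARA*, *VDR*, *PPARG* and the oxysterol (LXR) receptors, *NR3C1* acts mainly as a homodimer after release from HSP90 chaperones, and the ROR proteins bind DNA as monomers at elements found in clock genes. The NR4A proteins have no established ligand and are best known as immediate early genes, induced rapidly after receptor stimulation in lymphocytes and myeloid cells. In macrophages, glucocorticoid, vitamin D, LXR and PPARγ signalling are known for restraining inflammation and for lipid handling, whereas *RORB* is known mainly from the retina and brain.

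The promoters of *RORB*, the only member called upon CTCF depletion, and of *NR4A3*, a low-count member with the most cAMP response element cores, are shown because the results on these genes are set against them below. Both were taken from the RefSeq promoter windows (GRCh38.p14, plus strand, 250 bases upstream of a transcript start), which cover 8 of the 10 members in 24 windows and not *NR4A2* and *VDR*. In *RORB* the printed bases end just before the first exon, at chr9:74497215-74497334, and the capitals mark a CCAAT box, here on the minus strand as ATTGG, and a TATAA box. In *NR4A3* the bases lie at chr9:99821765-99821865, the last few of them inside the gene as annotated in GENCODE release 44. The capitals there mark the core of the cAMP response element, TGACG or, on the other strand, CGTCA.
RORB: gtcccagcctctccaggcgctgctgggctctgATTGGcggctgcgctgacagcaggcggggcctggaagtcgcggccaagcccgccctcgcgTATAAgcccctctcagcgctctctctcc
NR4A3: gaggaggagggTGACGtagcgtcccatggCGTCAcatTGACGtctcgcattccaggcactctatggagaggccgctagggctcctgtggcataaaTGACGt

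The capitals begin 88 and 28 bases upstream of the start in *RORB*, and 109, 91, 83 and 25 bases upstream in *NR4A3*. Each motif was searched on both strands. CCAAT occurred in 32.0% and TATAA in 18.9% of all 35116 windows, so that neither sets *RORB* apart. TGACG occurred at least once in 21.2% of windows and at least 4 times in 0.236%, and *NR4A3* was among the latter. Both windows of *NR4A1* held 0 copies. The nuclear receptor core AGGTCA, found in 12.1% of windows, was present upstream of *PPARG* and *RARA*. These matches describe letters only and are not evidence of binding. The G and C content of the 250 upstream bases was 72% at the printed *RORB* start, 41.6% at its internal start and 89.2% at the first *RXRA* start, against a median of 58% over all windows.

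**Figure D1:**
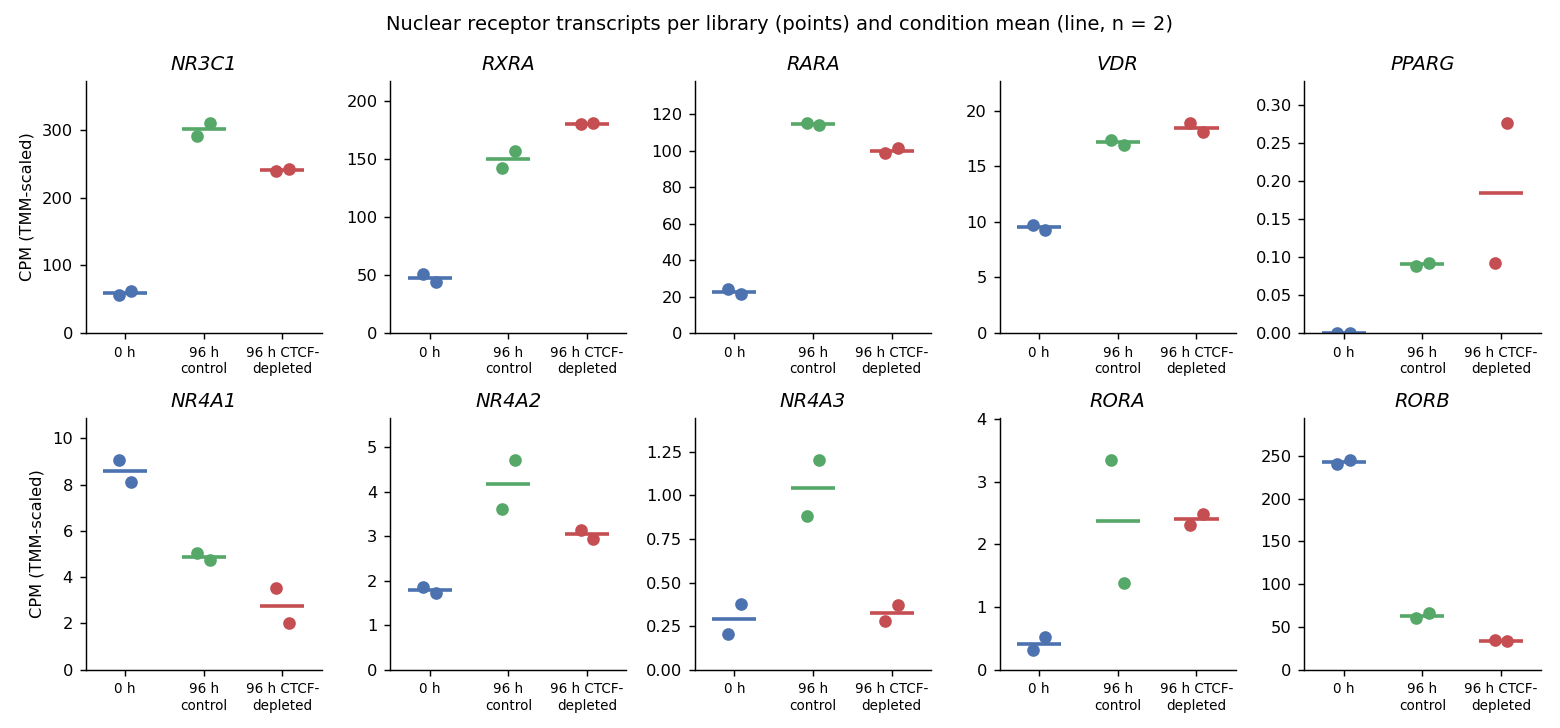
Level of each receptor in CPM (y axis, starting at 0, scaled separately per gene) in the 6 libraries (points) with the mean of each condition (line, n = 2). *NR3C1*, *RXRA* and *RARA* were higher at 96 h in all 4 libraries, *RORB* was lower in all 4 and lowest with CTCF depletion, and *NR4A3* stood higher in the control libraries (0.883 and 1.20 CPM) than in the other 4.

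To find which receptors accompany the conversion, 96 h control cells were compared with 0 h cells. A gene was called with edgeR's quasi-likelihood test where its adjusted p was below 0.01 and its log2 fold change exceeded 0.6 in either direction, which are the thresholds the study set. Of the 8 tested receptors 6 were higher (*NR3C1*, *RARA*, *RXRA*, *VDR*, *NR4A2* and *RORA*), where 25.4% of all tested genes were higher, and 2 were lower (*RORB* and *NR4A1*), where 22.9% of all tested genes were lower. Their median log2 fold change was 1.44, against 0.015 for all tested genes. With 2 libraries per condition a permutation of labels cannot give a p below 0.333, so that these p-values rest on the spread estimated across genes. In bulk RNA, fewer cells of a kind and less RNA per cell cannot be told apart.

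The ligand-activated receptors rose, apart from *PPARG*, which could not be measured. *NR3C1*, which mediates the response to cortisol, had 56.3 and 62.3 CPM at 0 h, 291 and 310.0 CPM in control and 239 and 243 CPM after CTCF depletion. Its increase at 96 h was 5.05-fold (log2 2.33, SE 0.06, adjusted p = 3.68e-41), and no 96 h library came near the 0 h level. *RARA*, which binds all-trans retinoic acid, had 24.1 and 21.2 CPM at 0 h, 115 and 114 CPM in control and 98.5 and 102 CPM after CTCF depletion. It rose 5.09-fold (log2 2.35, SE 0.08, adjusted p = 1.51e-33). *RXRA*, the obligate partner of several of these receptors, had 51.0 and 44.2 CPM at 0 h, 142 and 157 CPM in control, and 180.2 and 181 CPM after CTCF depletion. Its rise to the control level was 3.17-fold (log2 1.66, SE 0.07, adjusted p = 5.29e-30). *VDR* rose less: it had 9.70 and 9.30 CPM at 0 h, 17.4 and 16.9 CPM in control and 18.9 and 18.1 CPM after CTCF depletion, a 1.81-fold increase (log2 0.86, SE 0.14, adjusted p = 2.90e-07). For these 4 genes the control and 0 h libraries did not overlap, as was so for 86.7% of all tested genes. The calls held in each alternative analysis apart from that requiring an absolute log2 change above 1, which *VDR* did not reach.

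*PPARG* was at the limit of this depth. It had 0 counts in both 0 h libraries, 1 count in each control library, and 1 and 3 counts with CTCF depletion. Since 3 counts correspond to 0.225 to 0.309 CPM in these libraries, its presence or change was not detectable, and no fold is given.

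The orphan receptors went in both directions. *RORB* was the most abundant member in the B cell state, with 241 and 246 CPM at 0 h, 60.1 and 66.1 CPM in control and 34.6 and 33.5 CPM after CTCF depletion. It was 3.86-fold lower in control than in 0 h cells (log2 -1.95, SE 0.06, adjusted p = 3.75e-35), and the 3 conditions were fully separated. *RORA*, its relative with a broad role in immune cells and the clock, had 3 and 7 counts at 0 h, 38 and 15 in control and 25 and 27 in CTCF-depleted cells. It was 5.40-fold higher in control (log2 2.43, SE 0.51, adjusted p = 2.53e-05). This call rests on 1 library: without control replicate 1 the log2 fold change was 1.62 (adjusted p = 0.0334).

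Of the NR4A genes, *NR4A1* fell and *NR4A2* rose. *NR4A1*, also called NUR77 and used as a reporter of antigen receptor signalling, had 9.08 and 8.10 CPM at 0 h, 5.03 and 4.72 CPM in control and 3.52 and 2.03 CPM after CTCF depletion. It was 1.75-fold lower in control (log2 -0.81, SE 0.21, adjusted p = 5.49e-04). *NR4A2*, also called NURR1, had 1.86 and 1.72 CPM at 0 h, 3.62 and 4.72 CPM in control and 3.15 and 2.95 CPM after CTCF depletion. It was 2.33-fold higher in control (log2 1.22, SE 0.31, adjusted p = 3.57e-04). Both calls rest on under 110 counts per library and were lost in some settings: with DESeq2 the adjusted p was 0.0304 for *NR4A1* and 0.0182 for *NR4A2*, without control replicate 2 it was 0.0156 and 0.0190, and without 0 h replicate 2 it was 0.0108 for *NR4A2*.

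*NR4A3* had 2 and 5 counts at 0 h, 10 and 13 in control and 3 and 4 in CTCF-depleted cells. The control libraries were above the other 4, which overlapped. Scaled for library size, the control counts were 3.42 times those at 0 h, with a 95% counting interval of 1.42 to 9.44, and 3.22 times those upon CTCF depletion, with an interval of 1.34 to 8.87. These intervals cover counting error only. When all genes were fitted without a filter, the edgeR adjusted p was 0.0380 for control against 0 h and 0.0934 for CTCF-depleted against control, so that neither difference was called. Its promoter, with the 4 cAMP response element cores printed above, thus belongs to a gene close to the detection limit in all 6 libraries.

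**Figure D2:**
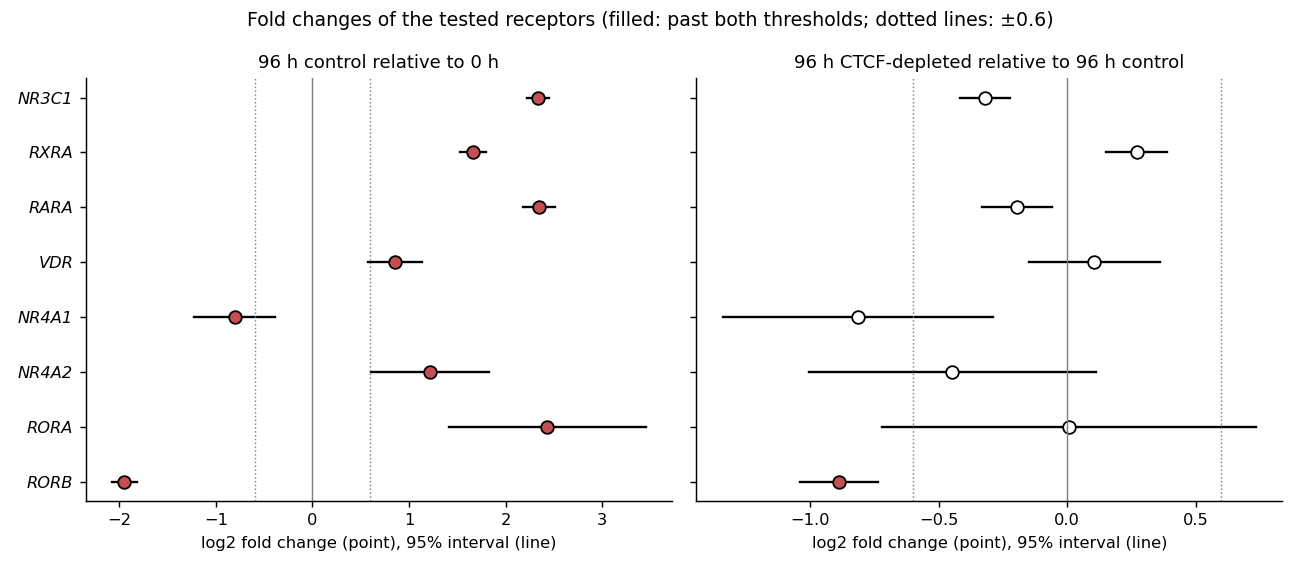
Log2 fold change (points) with its 95% interval (lines) for the 8 tested receptors in 96 h control relative to 0 h (left) and in CTCF-depleted relative to control cells at 96 h (right), with separate x axes. Filled points passed both thresholds, which all 8 did on the left and only *RORB* (-0.89) did on the right.

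To ask which receptors depend on CTCF at 96 h, CTCF-depleted cells were compared with control cells. Of the 8 tested members edgeR called 0 higher, where 5.41% of all tested genes were higher, and 1 was lower (*RORB*), where 7.03% of all tested genes were lower. The median log2 fold change of the members was -0.26, against -0.03 for all tested genes. *RORB* was 1.85-fold lower (log2 -0.89, 95% interval -1.04 to -0.74, adjusted p = 7.89e-15). Both CTCF-depleted libraries were below both control libraries, and the decrease passed both thresholds whichever library was left out (log2 -0.92 to -0.79). The B cell marker sum was also lower, at 358 and 374 CPM against 408 and 413 CPM. Of the 11 markers 3 were lower: *VPREB1* fell 1.86-fold from 12.1 to 6.51 CPM, *IGLL1* 2.27-fold from 2.85 to 1.25 CPM and *RAG1* 3.83-fold from 7.81 to 2.03 CPM. *VPREB3* was higher, at 2.08 against 0.812 CPM, and the other 7 were not called. The calls of *IGLL1* and *VPREB3* were lost without control replicate 2 or without CTCF-depleted replicate 1, and that of *VPREB3* also without control replicate 1. Whether the remaining B cell transcripts bear on the *RORB* level was not tested.

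DESeq2 also called 0 members higher, and *RXRA* was the 1 member above control with an unadjusted p below 0.05. For 4 further members the difference passed an adjusted p of 0.05 but not the 2 thresholds together, namely *RXRA*, *NR3C1*, *RARA* and *NR4A1*. *RXRA* stood 1.21-fold higher (log2 0.27, 95% interval 0.15 to 0.39, adjusted p = 1.61e-04), *NR3C1* 1.25-fold lower (log2 -0.32, interval -0.42 to -0.22, adjusted p = 2.37e-07) and *RARA* 1.15-fold lower (log2 -0.20, interval -0.33 to -0.06, adjusted p = 0.0168). For *RXRA*, *NR3C1* and *RARA* the 2 conditions did not overlap, as was so for 67.9% of all tested genes, and the intervals lay within the fold threshold, so that any change was below 0.6 on the log2 scale. *VDR* was within its error (log2 0.11, interval -0.15 to 0.36, adjusted p = 0.555).

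*NR4A1* was near the threshold. Its log2 fold change was -0.81, with a 95% interval of -1.34 to -0.29 and an adjusted p of 0.0105. The 2 CTCF-depleted libraries, with 38 and 22 counts, differed from each other about as much as from the control libraries, with 57 and 51. Without CTCF-depleted replicate 1 the log2 fold change was -1.22 (adjusted p = 0.00328), and without CTCF-depleted replicate 2 it was -0.44. *NR4A2* was at -0.45 (interval -1.01 to 0.11, adjusted p = 0.211) and *RORA* at 0.01 (interval -0.72 to 0.73, adjusted p = 0.992). The control libraries of *RORA* were far apart, at 3.35 and 1.39 CPM, with the CTCF-depleted libraries in between.

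CTCF-depleted cells were also compared with 0 h cells, a comparison that shares libraries with both of the preceding ones. There 5 members were higher, where 27.2% of all tested genes were higher, and 2 were lower, where 25.2% of all tested genes were lower. *NR3C1* was 4.04-fold, *RARA* 4.44-fold, *RXRA* 3.82-fold, *VDR* 1.95-fold and *RORA* 5.43-fold higher than at 0 h. *RORB* was 7.14-fold and *NR4A1* 3.07-fold lower. *NR4A2* had a log2 fold change of 0.77 (SE 0.33, adjusted p = 0.0288) and did not pass.

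Levels can be compared between genes only per length, here as CPM per kilobase of the MANE Select transcript, the agreed reference isoform. At 0 h *RORB* led with 25.4 ± 0.35 CPM per kb (SD, n = 2), followed by *NR3C1* with 8.75 ± 0.62, *RXRA* with 8.59 ± 0.87 and *RARA* with 6.93 ± 0.63. *NR3C1* and *RXRA* did not differ beyond their spread. *NR4A1* (3.46), *VDR* (2.06) and *NR4A2* (0.516) followed, and *NR4A3* (0.0519) and *RORA* (0.0385) were within each other's spread. In control cells the order was *NR3C1* (44.4 ± 1.97), *RARA* (35.0 ± 0.23), *RXRA* (27.0 ± 1.91), *RORB* (6.59 ± 0.44), *VDR* (3.72 ± 0.067), *NR4A1* (1.96 ± 0.088) and *NR4A2* (1.20 ± 0.22), with *RORA* and *NR4A3* again within their spread. In CTCF-depleted cells *NR3C1* (35.5 ± 0.38) was followed by *RXRA* (32.6 ± 0.12) and *RARA* (30.6 ± 0.67), which had traded places. *VDR* (4.0 ± 0.13) stood above *RORB* (3.56 ± 0.081), although this order turned when the exons of all coding transcripts were used as the length. With that length *NR4A2* also stood above *NR4A1* in both 96 h conditions, and *RXRA* and *NR3C1* changed places at 0 h. *NR4A1* (1.12 ± 0.42) and *NR4A2* (0.878 ± 0.041) were within their spread.

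**Figure D3:**
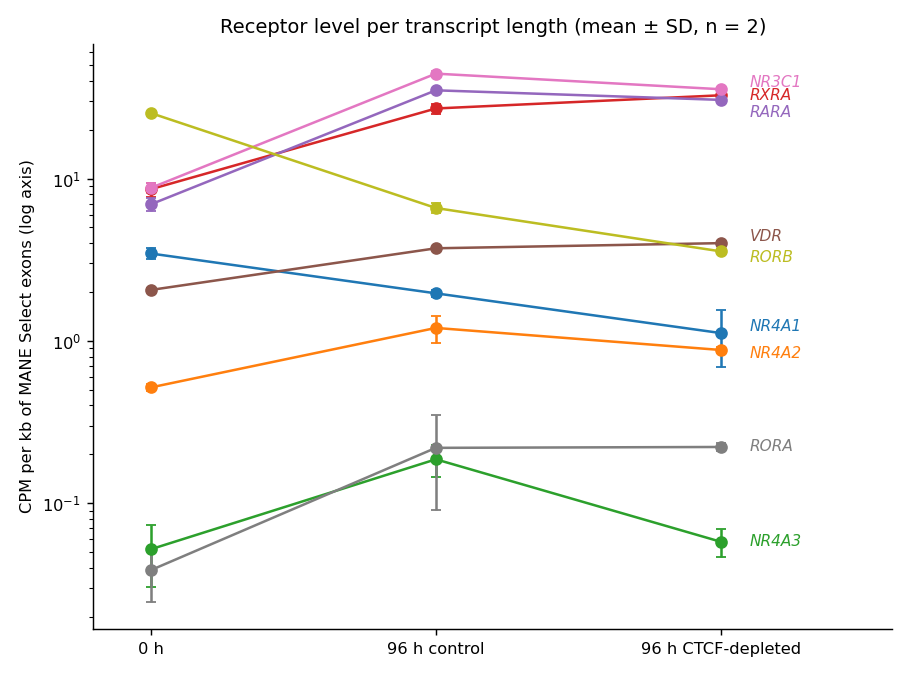
Mean level per kilobase of MANE Select exons (y axis, logarithmic) with SD (n = 2) for 9 receptors in the 3 conditions, with *PPARG* left out because it was at or under 3 counts in every library. *RORB* went from first place at 25.4 CPM per kb to 3.56 CPM per kb, while *NR3C1*, *RARA* and *RXRA* all ended above 30 CPM per kb in CTCF-depleted cells.

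In the whole nuclear receptor family of 48 genes, the 10 members held 24.3% and 24.7% of the receptor CPM at 0 h, 34.0% and 34.6% in control and 31.9% and 32.7% in CTCF-depleted cells. Within that total, *RORB* went from 14.8% and 15.4% to 3.20% and 3.38% and then 1.90% and 1.87%, and *NR3C1* from 3.47% and 3.91% to 15.5% and 15.8% and then 13.1% and 13.6%. The receptor with the most counts was *ESR1*, with a mean of 565 CPM at 0 h, 462 CPM in control and 483 CPM after CTCF depletion. Reads from the estrogen receptor part of the C/EBPα transgene cannot be told apart from reads of the gene itself. *ESR1* is part of the total, so that its level moves the shares above, which are also not scaled for length.

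Of the 38 other receptors 19 were tested and 9 had no count in any library. In control cells 6 were higher than at 0 h (*RARG*, *NR6A1*, *PPARD*, *NR1H3*, *NR2C1* and *NR1H2*) and 3 lower (*RARB*, *NR1D1* and *THRA*). Of all tested genes 25.4% were higher and 22.9% lower. *NR1H2* (log2 0.66) fell under the fold threshold without 0 h replicate 2 (0.57) or without control replicate 2 (0.59). *RARG*, a second retinoic acid receptor, rose from 21.0 to 64.4 CPM, whereas *RARB*, which is itself induced by retinoic acid, went from 3.93 to 0.0883 CPM. *PPARD*, the PPAR of many tissues, rose from 25.2 to 65.8 CPM. Upon CTCF depletion 2 of the 19 were higher and 1 lower, where 5.41% of all tested genes were higher and 7.03% lower. *NR1H3*, which encodes the oxysterol receptor LXRα, rose from 7.63 to 15.6 CPM (log2 1.03, SE 0.16, adjusted p = 3.98e-07), and *NR6A1*, an orphan receptor, from 5.05 to 11.4 CPM (log2 1.17, SE 0.19, adjusted p = 1.39e-06). *NR2C1*, an orphan receptor also called TR2, fell from 66.6 to 35.3 CPM (log2 -0.92, SE 0.08, adjusted p = 1.05e-13), close to its level of 35.8 CPM at 0 h.

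**Figure D4:**
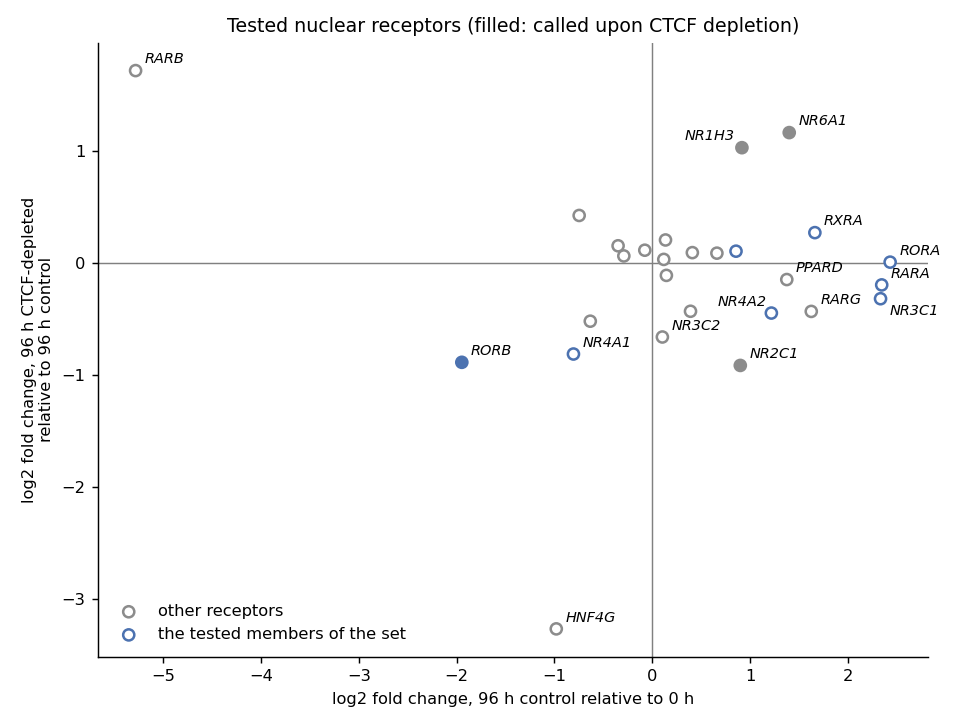
Log2 fold change in 96 h control relative to 0 h (x axis) and in CTCF-depleted relative to control cells (y axis) for the 27 tested receptors, with the 8 tested members in blue and the other 19 in grey. Both axes use the control libraries, so the 2 values of a gene are not independent. Filled points were called upon CTCF depletion: *RORB*, *NR2C1*, *NR1H3* and *NR6A1*.

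The proteins through which the receptors act were examined next. Beside the list counts from here on, 25.4% of all tested genes were higher and 22.9% lower in control than at 0 h. Upon CTCF depletion these shares were 5.41% and 7.03%. Of 16 tested coregulators 6 were higher and 2 lower in control than at 0 h, with a median log2 fold change of 0.53. The coactivator *NCOA1* rose from 51.3 to 123 CPM, the histone acetyltransferase *CREBBP* from 383 to 608 CPM and the corepressor subunit *TBL1X* from 100.4 to 260.0 CPM. *NCOA2*, *NCOA3* and *EP300* also rose. Without 0 h replicate 2 *CREBBP* (log2 0.58) fell under the fold threshold, and *PPARGC1B* (0.67) and *NCOR1* (0.61) came above it. The arginine methyltransferase *CARM1* fell from 146 to 71.1 CPM and the ligand-dependent corepressor *NRIP1* from 516 to 300.5 CPM. Upon CTCF depletion edgeR and DESeq2 called 0 of the 16, although 6 had an unadjusted p below 0.05, as well as an adjusted one. Among 6 tested chaperones and co-chaperones of the glucocorticoid receptor, 4 fell at 96 h in control: *HSP90AA1*, *HSP90AB1*, *FKBP4* and *STIP1*, the first of them by 1.20 on the log2 scale. Upon CTCF depletion edgeR and DESeq2 called 0 of the 6, with 4 at an unadjusted p below 0.05. The steroid-converting enzymes *HSD11B1* and *HSD11B2* had too few counts to be tested.

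Of 7 tested genes known as glucocorticoid targets 4 were higher and 1 was lower in control than at 0 h. Over all tested genes these shares were 25.4% and 22.9%. *TSC22D3*, which encodes the anti-inflammatory protein GILZ, rose from 1.95 to 40.8 CPM and fell to 22.5 CPM upon CTCF depletion (log2 -0.85, SE 0.10, adjusted p = 8.03e-10). It was the only one of the 7 called upon depletion. *CD163*, the hemoglobin scavenger receptor, had 0 counts at 0 h and was at least 197-fold higher in control, with *KLF9* and *SGK1* also higher and *DUSP1* lower. *FKBP5*, a target as well as a co-chaperone, was at 190.0, 201 and 153 CPM. *CD163* is also on the macrophage marker list.

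Of 6 tested genes of retinoid metabolism and binding, 3 were higher and 1 was lower upon CTCF depletion, whereas 1 (*DHRS9*) was higher and 1 (*CRABP2*) lower in control than at 0 h. *RDH10*, which oxidizes retinol, rose from 8.31 to 22.4 CPM (log2 1.43, SE 0.16, adjusted p = 3.52e-11). *DHRS3*, which reduces retinal, rose from 10.0 to 18.3 CPM (log2 0.87, SE 0.16, adjusted p = 1.05e-05). *DHRS9*, another retinol dehydrogenase, fell from 7.11 to 3.33 CPM. The 4 calls became 2 with DESeq2, without control replicate 2, and without either CTCF-depleted replicate. Among them *DHRS9* was lost with DESeq2 (adjusted p = 0.0449), without control replicate 2 and without CTCF-depleted replicate 2. Of 5 tested targets of retinoic acid receptors 1 was higher in control than at 0 h (*TGM2*) and 3 were lower (*CD38*, *RARB* and *CRABP2*), with a median log2 fold change of -1.47, next to the rise in *RARA* itself. *CD38* fell from 72.5 to 26.3 CPM. Upon CTCF depletion only *DHRS3* of these was called, and without CTCF-depleted replicate 1 it was not (log2 0.57, adjusted p = 0.0133).

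All 4 tested targets of the vitamin D receptor were higher in control than at 0 h. The antimicrobial peptide gene *CAMP* had 0 counts at 0 h and was at least 74.2-fold higher, at 19.8 CPM, and *CD14*, *FBP1* and thrombomodulin (*THBD*) rose too. *CD14* is also a macrophage marker. Upon CTCF depletion edgeR and DESeq2 called 0 of the 4, although 3 had an unadjusted p below 0.05, with *CAMP* at 23.8 CPM and *THBD* at 1.48 against 2.85 CPM. Without CTCF-depleted replicate 1, *CD14* was called higher (log2 0.64, adjusted p = 0.00399). *CYP24A1*, which inactivates vitamin D and is a sensitive target of its receptor, had no count in any library. *CYP27B1*, the activating enzyme, fell from 3.61 to 1.32 CPM in control and was not called upon depletion. Its 0 h libraries had 25 and 62 counts, and the call was lost with DESeq2 (adjusted p = 0.0192), without 0 h replicate 2 (0.0664) and without control replicate 1 (0.0149).

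Targets of PPARγ and of LXR partnered with RXR were examined for lipid handling. Of 4 tested PPARγ targets 2 rose and 1 fell in control. The scavenger receptor *CD36* had 0 counts at 0 h, 47.3 CPM in control (at least 177-fold higher) and 16.3 CPM after CTCF depletion (log2 -1.54, SE 0.11, adjusted p = 1.34e-17). *PLIN2*, a lipid droplet protein, rose from 65.6 to 142 CPM, *CPT1A* fell from 120.2 to 71.9 CPM, and *FABP4* had no count. Of 7 tested LXR targets 3 rose and 1 fell in control. Upon depletion they split: 2 were higher, with apolipoprotein E (*APOE*) going from 0.871 to 4.30 CPM and the phospholipid enzyme *LPCAT3* from 53.4 to 81.5 CPM, and 3 were lower. The cholesterol transporter *ABCA1* fell from 660.3 to 410.3 CPM (log2 -0.69, SE 0.05), the LDL receptor ligase *MYLIP* from 153 to 70.0 CPM (log2 -1.13, SE 0.07) and the desaturase *SCD* from 334 to 209 CPM. Without CTCF-depleted replicate 1 neither *SCD* (log2 -0.56) nor *LPCAT3* (0.59) passed the fold threshold, and 3 calls were left. Nor did *LPCAT3* without control replicate 1.

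**Figure D5:**
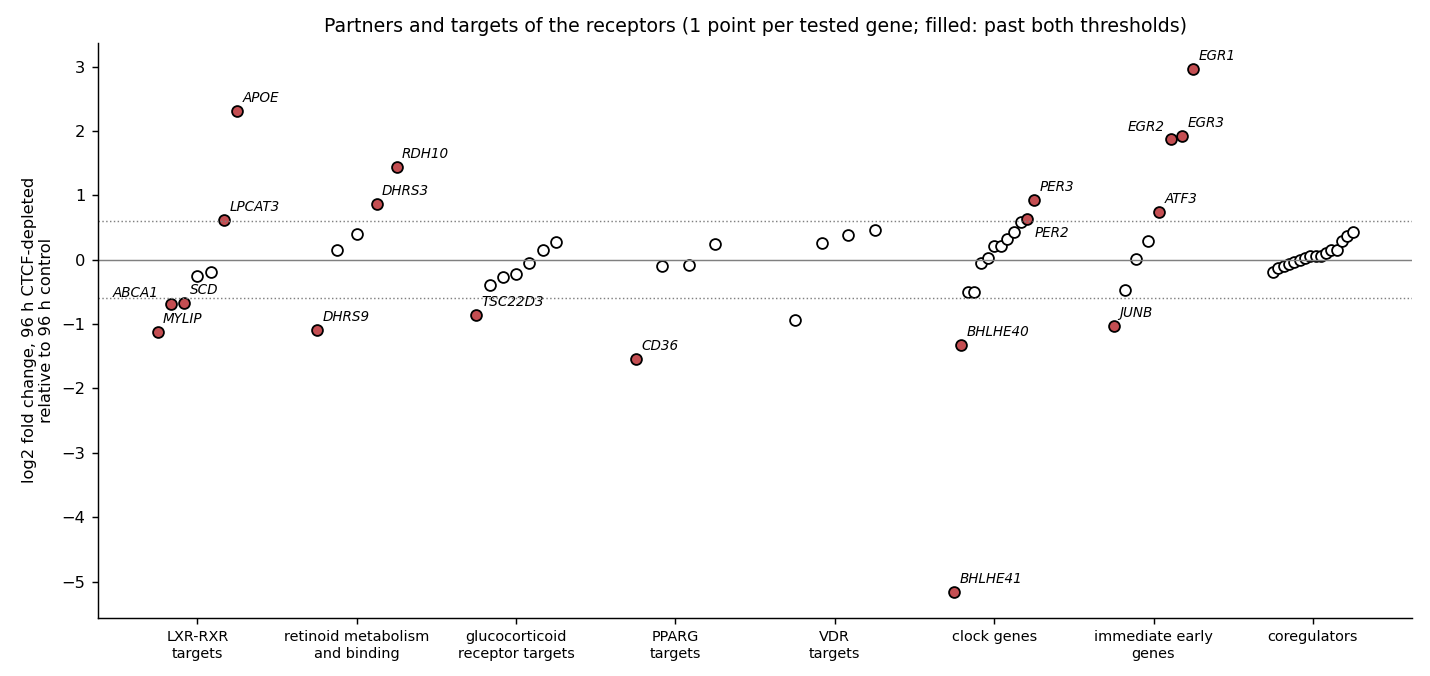
Log2 fold change in CTCF-depleted relative to control cells at 96 h for each tested gene (points) of 8 gene lists around the receptors, with called genes filled and named and 1 called gene left out. Coregulators and vitamin D receptor targets held no called gene, whereas called LXR targets, retinoid genes, clock genes and immediate early genes lay on both sides of 0. The lowest point, *BHLHE41*, is a fitted value resting on 0 and 1 counts after CTCF depletion.

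ROR proteins and NR1D receptors act on the circadian clock. Of 13 tested clock genes 4 were higher and 3 lower in control than at 0 h. *ARNTL*, the standard ROR target that encodes BMAL1, rose from 43.6 to 97.4 CPM, and the repressor *BHLHE40* from 1.14 to 190.0 CPM. *DBP* and *BHLHE41* were also higher, and *NR1D1*, *NPAS2* and *PER3* lower. Upon CTCF depletion *PER2* and *PER3* were higher, and *BHLHE40* fell to 76.2 CPM (log2 -1.32, SE 0.07, adjusted p = 2.67e-24). *BHLHE41* was at 0, 2.04 and 0.0463 CPM in the 3 conditions. *ARNTL* stood at 68.7 CPM, a log2 difference of -0.50 that did not pass the fold threshold. *CLOCK* went from 59.0 to 88.7 CPM (log2 0.588, edgeR adjusted p = 1.22e-09), just under that threshold. With DESeq2 it was called higher (log2 0.601), and its log2 difference was 0.61 to 0.63 when a library was left out. The call of *PER3* upon depletion was lost with DESeq2 (adjusted p = 0.061), without either control replicate and without CTCF-depleted replicate 2, and that of *NPAS2* at 96 h with DESeq2 and without control replicate 1.

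The NR4A genes are usually induced together with other immediate early genes, so these were set beside them. Of 8 tested 6 were higher in control than at 0 h (*FOS*, *FOSB*, *JUNB*, *EGR2*, *ATF3* and *IER2*) and 1 was lower (*EGR1*). Upon CTCF depletion 4 were higher: *EGR1* from 13.8 to 108 CPM (log2 2.96, SE 0.09, adjusted p = 8.81e-33), *EGR2* from 4.74 to 17.5 CPM, *EGR3* from 0.545 to 2.08 CPM and *ATF3* from 9.58 to 16.1 CPM. *JUNB* fell from 194 to 94.6 CPM. The calls of *EGR3* and *ATF3* were lost with DESeq2 (adjusted p = 0.0416 and 0.0203) and without control replicate 2, and that of *EGR3* also without control replicate 1 or CTCF-depleted replicate 2. In control against 0 h, *IER2* (log2 0.62) fell under the fold threshold without 0 h replicate 2 (0.38), control replicate 2 (0.58) or CTCF-depleted replicate 1 (0.58). The *ATF3* call (log2 1.02) in that comparison was lost without control replicate 1 (0.67). None of the NR4A genes had a higher mean in CTCF-depleted than in control cells.

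Position and overlap limit some of these values. On GRCh38 with GENCODE release 44, *RORB* lies at chr9:74497335-74693177 on the plus strand and *NR4A1* at chr12:52022832-52059507 on the plus strand, each with an antisense gene. *RORA*, at chr15:60488284-61229302 on the minus strand, spans 741 kb and overlaps 13 annotated genes. *NR3C1* lies at chr5:143277931-143435512 on the minus strand, *RXRA* at chr9:134317098-134440585 on the plus strand and *RARA* at chr17:40309180-40357643 on the plus strand. The antisense gene *RARA-AS1* had 6 and 9 counts at 0 h, 85 and 70 in control and 48 and 54 in CTCF-depleted cells, with *RARA* at 234 and 283, 1305 and 1232, and 1064 and 1103 counts. The strand setting of the counting is not given in the sources used here, so that reads of the pair may not be told apart.

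The nearest tested gene on each side of each member was chosen after values had been seen. Of these 20 neighbours 1 was higher and 2 were lower upon CTCF depletion, where 5.41% of all tested genes were higher and 7.03% lower. *ARHGAP26*, a GTPase-activating protein gene 48.9 kb from *NR3C1*, rose from 319 to 515 CPM (log2 0.69, SE 0.05, adjusted p = 1.34e-17), opposite in sign to the difference in *NR3C1*. *TOP2A*, next to *RARA*, and the keratin gene *KRT80*, next to *NR4A1*, fell. The *KRT80* call was lost with DESeq2 (adjusted p = 0.0417), without control replicate 2 and without CTCF-depleted replicate 2. The neighbours of *RORB* were not called: *ANXA1*, 1327 kb away, had a log2 fold change of -0.04, and *C9orf40*, 253 kb away, of -0.45 (adjusted p = 0.0217). The 3 tested genes whose pattern over the 6 libraries was most like that of *RORB*, by the Euclidean distance of centred log2 CPM, were *ZNF462* (distance 0.138), *DSG2* (0.183) and *BCAT1* (0.193). *ZNF462* went from 70.3 to 18.4 and 9.61 CPM, *DSG2* from 32.3 to 8.0 and 4.20 CPM, and *BCAT1* from 1354 to 323 and 172 CPM.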

How the data were processed

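RNA-seq of total RNA depleted of ribosomal RNA was analysed in 6 libraries, 2 per condition. Alignment by the authors used STAR 2.6.1d and hg38, and they deposited raw counts per gene from featureCounts 2.0.6, as stated in their methods and processing notes. Counts were tested in R 4.3.3 with edgeR 4.0.16 (filterByExpr, TMM, quasi-likelihood F-test, all 6 libraries, condition as the only term), and p-values were adjusted over the 14758 genes tested with the Benjamini-Hochberg method. CPM use TMM-scaled library sizes. A fold against a group with 0 counts was bounded at 3 counts per library. On simulated counts of the CTCF-depleted against control comparison, run on 14758 genes, edgeR recovered 94 of 100 genes changed by a log2 of 1 and 100 of 100 changed by 2. The changed genes were drawn from those above 3 CPM in control cells, with the spread set by its trend over genes. The recovery thus does not cover *RORA*, *NR4A3* and *PPARG*, which lay below 3 CPM in control cells. DESeq2 1.42.0, other filters, normalization and thresholds, a replicate block and leaving out each library were alternatives. Libraries with the same replicate number were not paired. The members, the 12 gene lists and the 5 marker lists were chosen with earlier results of these data known. Named genes are all members, list genes that were called, up to 6 per list and direction by fold change, receptors above 10 CPM and the 3 genes most like *RORB*. A few such genes were left out of the text. Any others were chosen after their values were seen. Positions are from GENCODE release 44 and promoters from RefSeq. Depth of 9273470 to 12718780 counts limits genes near 3 counts.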

Additional observations from a re-analysis of the deposited data

Results flagged for a closer look

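The change of *RORB* from 0 h differed between cells with and without CTCF. It was -1.95 on the log2 scale without and -2.84 with CTCF depletion, a difference of -0.89 (SE 0.08, edgeR quasi-likelihood test, adjusted p = 7.89e-15), and both CTCF-depleted libraries (34.6 and 33.5 CPM) were below both control libraries (60.1 and 66.1 CPM). Both changes use the same 0 h libraries, which cancel, so that this difference is the comparison of CTCF-depleted with control cells given above and not a further result.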

How the results depend on the processing

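Of 285 alternative values of the members' fold changes, 274 kept their direction and side of the thresholds. The 6 members higher in control than at 0 h became 5 with DESeq2, which did not call *NR4A2*. They were also 5 at an absolute log2 fold change above 1, and with at least 10 counts in every library, where *RORA* was untested. The calls of *NR4A2* and *RORA* also depended on single libraries, as given above. The 2 members lower in control than at 0 h became 1 with DESeq2, 1 with an absolute log2 fold change above 1, and 1 to 2 when a library was left out. Upon CTCF depletion, 0 higher became 1 (*RXRA*) and 1 lower became 4 when only an adjusted p below 0.05 was required, and 1 lower became 0 at an absolute log2 fold change above 1, 2 without a filter on low counts (*NR4A1*, adjusted p = 0.00733) and 1 to 2 when a library was left out. With the replicate number as a block, the count of lower members was 2, since *NR4A1* passed (log2 -0.82, adjusted p = 0.0095). The numbers did not pair the samples (correlations of deviations -0.0194, 0.0109 and -0.0294), and the block changed no other member's call. *RORA* upon CTCF depletion reversed from 0.01 to -0.45 without control replicate 2 and to -0.02 without CTCF-depleted replicate 2, and ranged up to 0.82 without control replicate 1. It was not tested with at least 10 counts in every library. Other causes were not tested. Of 504 alternative counts of called genes in the lists, 51 moved by over 1.5 times. Depth limits *PPARG*, *NR4A3* and *RORA*.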
